A study of Mus musculus with 10 samples.

Results

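The genes described here encode the mitochondrial respiratory chain and ATP synthase, together called oxidative phosphorylation. They were taken by name: genes whose symbol starts with Nduf, Uqcr or Atp5, with Cox followed by a digit from 4 to 8 and a letter, or is Sdha, Sdhb, Sdhc or Sdhd, plus the protein-coding genes of mitochondrial DNA whose names start with mt-Nd, mt-Co, mt-Cy or mt-Atp. This gave 87 of 23283 named genes and joined loci at 2.5 months, all of the nuclear genome, and 106 of 54427 named genes at 3 months, of which 93 were nuclear and 13 mitochondrial. The mitochondrial genes have values only in the 3-month data used here. Of the nuclear entries, 83 single genes occurred at both ages. At 2.5 months 3 further entries were loci in which the deposited table joins a member with its neighbours (Atp5l with Ube4a, Cox8a with Naa40 and Otub1, and Ndufaf3 with P4htm and Wdr6), and their values include those neighbours. Another 5 joined loci name a member in a later place and were not counted. Uqcrb, Ndufa7, Ndufs8, Ndufb2 and Ndufa13 are therefore not among the members at 2.5 months.

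RNA came from the somatosensory cortex of mice in which Nsd1, a histone methyltransferase gene, was deleted conditionally. The Nex groups were 3 Nsd1Nex-cKO libraries (Nex_cKO) and 3 control libraries (Nex_Ctrl) at 2.5 months, with Cre driven from the Neurod6 (Nex) locus, which is active in excitatory neurons from early in their life. The Camk2a groups were 2 Nsd1Camk2a-cKO libraries (Camk2a_cKO) and 2 control libraries (Camk2a_Ctrl) at 3 months, with Cre under Camk2a control, active in excitatory neurons after birth. Nex_Ctrl replicates 1 and 2 and both Camk2a_Ctrl libraries were Nsd1fl/+, and Nex_Ctrl replicate 3 was Nsd1fl/fl. Whether the controls carried Cre is not given, interneurons, glia and vessels keep Nsd1 under both drivers, and the labels do not say that replicates are separate mice, so p-values measure only the spread between these samples.

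The chain passes electrons from nutrients to oxygen in the inner mitochondrial membrane. Complex I takes them from NADH and complex II from succinate, complex III passes them to cytochrome c and complex IV to oxygen. Complexes I, III and IV pump protons, and complex V, the ATP synthase, uses their return to make ATP. Most subunits come from nuclear genes, while mitochondrial DNA encodes a few core subunits of complexes I, III, IV and V and none of complex II, so both genomes supply parts of the same machines. Neurons depend on this pathway for the ATP spent on ion pumping and synaptic transmission.

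Levels are FPKM, fragments per kilobase of gene, scaled to a library's mapped fragments, as the authors deposited them. Changes are differences of log2(FPKM + 1) between cKO and control, tested with limma on all genes of a table with FPKM of at least 1 in as many libraries as the smaller group holds, and called at an adjusted p under 0.05. At 2.5 months the targeted gene had a value only as a locus joined with Prelid1, so its own level cannot be read there. That locus had 91.0, 118 and 106 FPKM in Nex_cKO against 130, 125 and 141 FPKM in Nex_Ctrl (limma adjusted p = 0.0863). At 3 months Nsd1 alone was lower in cKO without passing the threshold. It had 4.31 and 4.99 FPKM in Camk2a_cKO against 5.61 and 8.87 FPKM in Camk2a_Ctrl (limma adjusted p = 0.685). The third Nex_cKO library differed from its group. Xist was 0.0035 FPKM in Nex_cKO replicate 3 against 33.6 to 46.5 FPKM in the other Nex libraries, and Ddx3y was 16.2 FPKM against 0 FPKM. Nex_cKO replicate 3 thus showed the male pattern of these genes, and the other Nex libraries the female pattern. Sex and the other features of that library cannot be told apart. Rows without a gene name took 41.6% of the summed FPKM of Nex_cKO replicate 3 against 2.33% to 19.4% in the other Nex libraries. Changes and medians of the Nex members are therefore also given without it. Depth is unknown at 2.5 months and was 16901717 to 20074933 reads per library at 3 months. The summed level of 6 excitatory neuron markers was 2450.1 to 2772 FPKM in Nex_cKO and 3084 to 3339 FPKM in Nex_Ctrl, with Neurod6 and Tbr1 lower (limma adjusted p = 0.00718 and 0.00333). Neurod6 is also the locus from which Cre was driven in this model, and the part of the driver in its level was not tested. In the Camk2a model the sum was 1774 to 1866 FPKM in Camk2a_cKO and 1791 to 1860 FPKM in Camk2a_Ctrl. The 6 oligodendrocyte markers summed to 1034 to 1249 FPKM in Nex_cKO and 1343 to 1456 FPKM in Nex_Ctrl, none of them called. The 5 endothelial markers summed to 69.9 to 79.4 FPKM in Nex_cKO and 82.5 to 99.4 FPKM in Nex_Ctrl, with Cldn5 lower (limma adjusted p = 0.0391). The 6 GABAergic neuron markers summed to 434 to 685 FPKM in Nex_cKO and 599 to 708 FPKM in Nex_Ctrl, with 1 called higher. For 5 astrocyte markers the sums were 241 to 275 FPKM in Nex_cKO and 220 to 259 FPKM in Nex_Ctrl, with 1 called higher. For 5 microglial markers they were 103 to 110 FPKM in Nex_cKO and 87.6 to 107 FPKM in Nex_Ctrl, none called and none with a negative change. The part of these cell types in the results below was not tested. In bulk tissue, fewer cells of a type and less RNA per cell cannot be told apart.

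In the Nex model no nuclear respiratory chain gene passed the threshold, and most sat slightly lower in cKO. Of the 87 entries 84 could be tested, and Cox7b2, Cox8b and Cox8c were too low. None of the 84 was called, where 8.53% of all 12528 tested genes were (560 or 4.47% higher and 509 or 4.06% lower). A negative change was found for 76 of the 84, 90.5%, against 59.5% of all tested genes, and the median change was -0.16 against -0.04 for all tested genes. All 3 Nex_cKO libraries lay below all 3 Nex_Ctrl libraries for 16 members and above them for none, where 18.9% of all tested genes were lower in this way and 11.5% higher. At an unadjusted p under 0.05 stood 10 members, 11.9%, against 23.5% of all tested genes. These were Ndufa5, Ndufc1, Ndufs5, Uqcr10, Uqcrh, Cox7a2, Atp5d, Atp5g1, Atp5j2 and the Atp5l locus. The members therefore shared a sign more often than genes at large, while the share reaching a nominal p was below that of genes at large and the share lower without overlap (16 of 84) was close to it.

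Most of the size of this shift came from a single library. Relative to the mean of the controls, the median over the 84 members was -0.08, -0.03 and -0.41 in Nex_cKO replicates 1, 2 and 3, against 0.01, -0.06 and 0.05 in Nex_Ctrl replicates 1, 2 and 3. Members below the control mean numbered 63, 47 and 78 in the Nex_cKO libraries and 33, 71 and 26 in the Nex_Ctrl libraries. Nex_cKO replicate 2 thus lay within the range of the controls by both measures. The FPKM of all 87 entries summed to 15403, 16346 and 10876 in Nex_cKO and to 16914, 15915 and 17183 in Nex_Ctrl. Without Nex_cKO replicate 3, 61 of 85 tested members had a negative change, against 59.3% of all genes, and the median was -0.06 against -0.04 for all genes. Of the 84 members tested in both fits, 17 turned from a negative to a positive change without that library, and 1 turned the other way. In that fit Cox7a1 rose and Atp5g1 fell, 1 call in each direction, where 5.01% of all tested genes were higher and 4.45% lower. Without Nex_cKO replicate 2 instead, Uqcr10, Atp5g1, Ndufaf2, Ndufc1 and Cox7a2 fell and none rose, where 5.4% of all tested genes were lower and 4.58% higher.

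**Figure D1:**
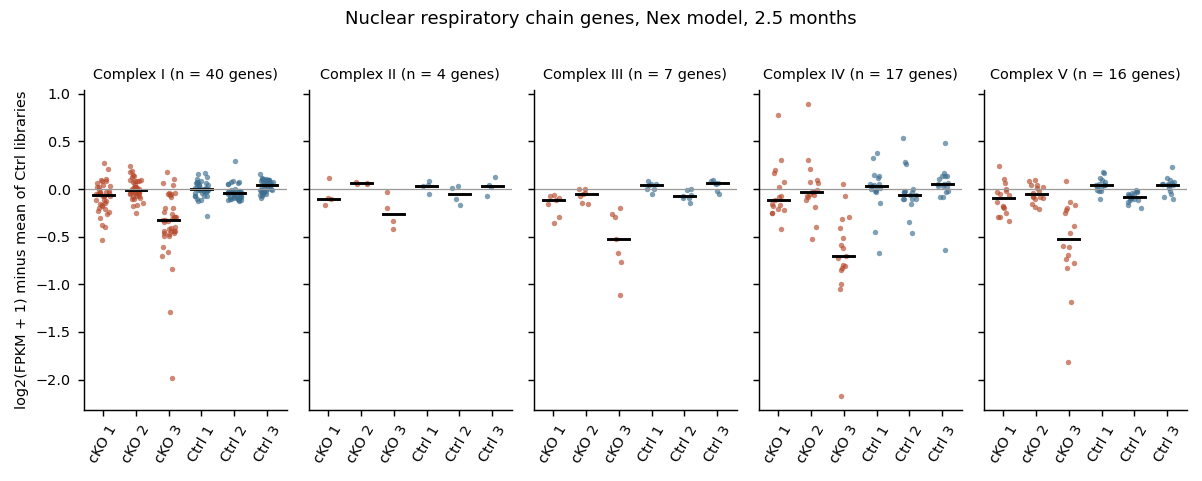
Nuclear respiratory chain genes in the Nex model: log2(FPKM + 1) minus the mean of the control libraries (vertical axis) for each gene (points) in each library, by complex, with black bars at medians. The complex medians of Nex_cKO replicate 3 lie at -0.33 (I), -0.27 (II), -0.52 (III), -0.71 (IV) and -0.53 (V), while those of the other libraries stay near 0.

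Short coding sequences moved together in Nex_cKO replicate 3, and respiratory chain genes are short. The longest coding sequence of a member had a median of 450.0 bases, against 1419 bases for all tested genes. In the 32 members with under 400 coding bases the median deviation from the control mean was -0.12, -0.04 and -0.55 in Nex_cKO replicates 1, 2 and 3. The 455 other genes of that length class stood at -0.03, 0.00 and -0.25 in the same libraries, and other genes with 3000 or more coding bases at 0.07 in Nex_cKO replicate 3. The 48 members with 400 or more coding bases stood at -0.32 in that library. Other genes stood there at -0.13 (400 to 1000 coding bases) and -0.03 (1000 to 3000). Across 80 members with a coding length, deviation and length had a Spearman rho of 0.56 in Nex_cKO replicate 3 and of -0.23 to 0.21 in the other 5 libraries. These members share each library, so the value is a description. After a correction for coding length, chosen after the values were seen, the members' median change was -0.08 with 60 of 80 negative. What part of the members' shift goes with length in this library was not tested further.

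**Figure D2:**
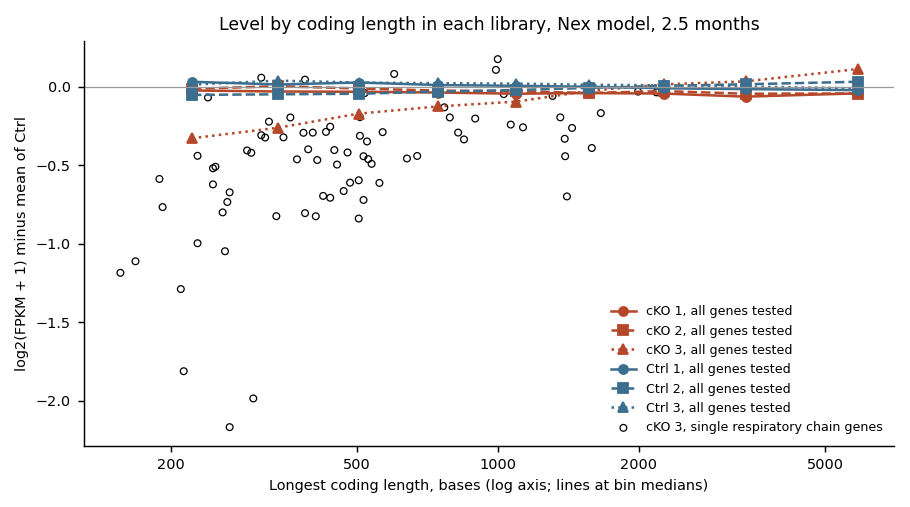
Level relative to the control mean (log2(FPKM + 1) difference, vertical axis) against the longest coding length in bases (log axis) in the Nex model: lines join medians over all tested genes per length class in each library, and open circles are single respiratory chain genes in Nex_cKO replicate 3. The shortest class lies at -0.33 in Nex_cKO replicate 3, and many of the circles lie below that line.

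Complex I, NADH dehydrogenase, gave the largest group, with 40 tested members in the Nex model counting its assembly factors. Their median change was -0.12 (-0.02 without Nex_cKO replicate 3), 36 were negative and none was called. Ndufc1, a small accessory subunit, had 134, 175 and 143 FPKM in Nex_cKO against 194, 181 and 209 FPKM in Nex_Ctrl. The groups did not overlap, and its change of -0.37 (SE 0.11) had the smallest adjusted p of all members (limma, 0.0781). Without Nex_cKO replicate 3 it was -0.34. Ndufs5, another accessory subunit, had 152, 177 and 158 FPKM in Nex_cKO against 217, 184 and 196 FPKM in Nex_Ctrl, also without overlap (-0.29, adjusted p = 0.101, and -0.27 without Nex_cKO replicate 3). Ndufa5, which sits in the arm that oxidises NADH, had 135, 137 and 124 FPKM in Nex_cKO against 143, 161 and 162 FPKM in Nex_Ctrl (-0.23, adjusted p = 0.129, and -0.19 without Nex_cKO replicate 3).

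Core subunits of complex I, which bind the flavin and iron-sulfur clusters, showed smaller differences. Ndufs1 had 49.9, 48.8 and 47.6 FPKM in Nex_cKO against 50.3, 45.6 and 50.7 FPKM in Nex_Ctrl, with overlap (0.00, adjusted p = 0.993, and 0.02 without Nex_cKO replicate 3). Ndufv1, which carries the NADH site, had 93.9, 91.5 and 72.2 FPKM in Nex_cKO against 97.8, 96.3 and 102 FPKM in Nex_Ctrl (-0.21, adjusted p = 0.271, and -0.09 without Nex_cKO replicate 3). Ndufa3, an accessory subunit with the highest control level and the largest change of the complex, had 341, 422 and 99.9 FPKM in Nex_cKO against 395, 394 and 406 FPKM in Nex_Ctrl. Only Nex_cKO replicate 3 was far from the rest, and the change of -0.71 (SE 0.44, adjusted p = 0.377) was -0.07 without it. Over the whole chain, the 11 core subunits had a median change of -0.13, the 48 supernumerary subunits -0.21, the 15 structural subunits of ATP synthase -0.24 and the 10 assembly factors -0.05. Without Nex_cKO replicate 3 these medians were -0.03, -0.06 (49 subunits), -0.09 and -0.06, in the same order.

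Complex II, succinate dehydrogenase, which also works in the citric acid cycle, had 4 tested members with a median change of -0.11 (-0.02 without Nex_cKO replicate 3). Sdha, its flavin subunit, had 129, 125 and 116 FPKM in Nex_cKO against 115, 119.6 and 122 FPKM in Nex_Ctrl, with overlap between the groups (0.05, adjusted p = 0.715, and 0.09 without Nex_cKO replicate 3). Sdhd, a membrane anchor, had 59.9, 66.7 and 47.7 FPKM in Nex_cKO against 65.9, 65.5 and 61.0 FPKM in Nex_Ctrl (-0.15, adjusted p = 0.467, and -0.02 without Nex_cKO replicate 3). Among the complexes, this one had the smallest share of negative changes, 3 of 4.

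Complex III, the cytochrome bc1 complex, had 7 tested members, Uqcrb not among them, all with a negative change and a median of -0.24. Without Nex_cKO replicate 3 all 7 were still negative and the median was -0.09. Its most abundant member, Uqcrq, which encodes a small accessory subunit, had 335, 359 and 259 FPKM in Nex_cKO against 396, 355 and 367 FPKM in Nex_Ctrl, with overlap (-0.24, and -0.10 without Nex_cKO replicate 3). Uqcr10, another accessory subunit, had 232, 269 and 174 FPKM in Nex_cKO against 298, 279 and 315 FPKM in Nex_Ctrl (-0.42, SE 0.15, adjusted p = 0.129). Every Nex_cKO value was below every control value, and without Nex_cKO replicate 3 the change was -0.25 (adjusted p = 0.112). Uqcrh, the hinge protein that helps cytochrome c bind, had 254, 279.6 and 195 FPKM in Nex_cKO against 319, 291 and 323 FPKM in Nex_Ctrl (-0.37, adjusted p = 0.132, and -0.22 without Nex_cKO replicate 3). Uqcr11 had 318, 327 and 159 FPKM in Nex_cKO against 357, 345 and 331 FPKM in Nex_Ctrl, and its change of -0.43 was -0.09 without Nex_cKO replicate 3.

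Complex IV, cytochrome c oxidase, had 17 tested members in the Nex model, 16 of them negative, with a median of -0.27 that was -0.08 over 18 members without Nex_cKO replicate 3. The locus joining Cox8a with Naa40 and Otub1 was the most abundant entry, with 1145, 1147 and 666 FPKM in Nex_cKO against 1194, 1181 and 1228 FPKM in Nex_Ctrl (-0.33, adjusted p = 0.378, and -0.07 without Nex_cKO replicate 3). Cox6a1, the liver-type form of an accessory subunit that the brain uses, had 989, 1121 and 647 FPKM in Nex_cKO against 1135, 1145 and 1161 FPKM in Nex_Ctrl (-0.36, adjusted p = 0.302, and -0.12 without Nex_cKO replicate 3). In both cases the groups did not overlap. Nex_cKO replicates 1 and 2 lay close under the controls for the Cox8a locus, and for Cox6a1 only replicate 2 did. Cox4i1, the form of subunit IV found in most tissues, had 711, 740.1 and 608 FPKM in Nex_cKO against 774, 723 and 772 FPKM in Nex_Ctrl (-0.14, adjusted p = 0.486, and -0.06 without Nex_cKO replicate 3). The member of this complex with the largest change was Ndufa4l2, a paralogue of the complex IV subunit Ndufa4, with 1.81, 1.54 and 0.616 FPKM in Nex_cKO against 3.18, 1.43 and 2.66 FPKM in Nex_Ctrl. Its groups overlapped and its level was near the lowest tested (-0.56, adjusted p = 0.216, and -0.32 without Nex_cKO replicate 3).

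Several complex IV subunits have a tissue-restricted form, and these were minor in cortex. Cox4i2, known from lung and contractile vessel cells, had 0.907 to 2.88 FPKM in Nex_cKO and 1.02 to 3.08 FPKM in Nex_Ctrl, no more than 0.396% of the sum with Cox4i1 in any Nex library. The 9 mural cell markers, from cells known to express Cox4i2 and Ndufa4l2, summed to 48.0 to 58.9 FPKM in Nex_cKO and 55.7 to 66.0 FPKM in Nex_Ctrl. Cox6a2, the heart and muscle form that parvalbumin interneurons also express, had 14.8, 16.4 and 10.3 FPKM in Nex_cKO and 12.6, 10.8 and 19.95 FPKM in Nex_Ctrl (-0.04, adjusted p = 0.937, and 0.14 without Nex_cKO replicate 3). The 7 parvalbumin interneuron markers summed to 304 to 431 FPKM in Nex_cKO and 347 to 387 FPKM in Nex_Ctrl, with 1 called higher and none lower. Cox6b2, Cox7b2 and Cox8b, forms of testis or of muscle, were below 3.6 FPKM in every Nex library, and Cox8c, a testis form, was listed at 0 in all 6.

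Cox7a1, the heart and muscle form of subunit VIIa, was the member whose change passed the threshold in the opposite direction once Nex_cKO replicate 3 was left out. It had 10.8, 11.7 and 0.529 FPKM in Nex_cKO against 4.02, 7.37 and 6.72 FPKM in Nex_Ctrl, so that 2 cKO libraries lay above all controls and replicate 3 below all of them. The change was -0.17 (SE 0.70, adjusted p = 0.916) with all libraries and 0.83 (adjusted p = 0.0367) without Nex_cKO replicate 3. As a share of the sum of Cox7a1 and Cox7a2 it was 7.33%, 7.08% and 0.464% in Nex_cKO and 2.34%, 4.43% and 4.04% in Nex_Ctrl. Cox7a2, the form of most tissues, had 136, 154 and 114 FPKM in Nex_cKO against 168, 159 and 159.7 FPKM in Nex_Ctrl (-0.28, adjusted p = 0.168, and -0.16 without Nex_cKO replicate 3). Markers of striated muscle, another source of Cox7a1, summed to 14.8 to 20.3 FPKM over 8 genes in Nex_cKO and to 10.7 to 12.1 FPKM in Nex_Ctrl. Of the 3 muscle markers tested, myoglobin (Mb) was higher, at 1.88 to 2.44 FPKM in Nex_cKO against 0 to 0.0807 FPKM in Nex_Ctrl (adjusted p = 0.0001), and Tnnt3 was listed at 0 throughout. The 4 brown fat markers summed to 1.19 to 2.65 FPKM in Nex_cKO and 0.410 to 1.18 FPKM in Nex_Ctrl, with Adipoq at 0. Their part in the Cox7a1 values was not tested. In the Camk2a model Cox7a1 had 1.37 and 1.11 FPKM in cKO against 0.978 and 1.23 FPKM in controls, from 9 to 13 reads per library.

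Complex V, ATP synthase, had 16 tested members in the Nex model, 14 of them negative, with a median of -0.23 (12 of 16 and -0.08 without Nex_cKO replicate 3). Atp5a1, the alpha subunit of the catalytic core, had 369.7, 364 and 305 FPKM in Nex_cKO against 339, 334 and 357 FPKM in Nex_Ctrl (0.01, limma adjusted p = 0.972, and 0.10 without Nex_cKO replicate 3). Its Nex_cKO replicates 1 and 2 lay above all controls. Atp5b, the beta subunit, had 550.4, 569 and 420.4 FPKM in Nex_cKO against 557, 532 and 566 FPKM in Nex_Ctrl (-0.12, and 0.02 without that library). Other subunits of the same part of the enzyme were lower in cKO. Atp5d and Atp5c1 lay below all controls in every Nex_cKO library, with changes of -0.30 and -0.11 (-0.15 and -0.06 without Nex_cKO replicate 3). Atp5e changed by -0.53, with overlap (-0.21 without that library). Atp5k, the small e subunit of the membrane part, had 616, 663 and 177 FPKM in Nex_cKO against 581, 566 and 734 FPKM in Nex_Ctrl. Its change of -0.58 (adjusted p = 0.466) was 0.04 without Nex_cKO replicate 3, which alone was low.

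The c subunit, of which a ring turns in the membrane as protons pass, is encoded by Atp5g1, Atp5g2 and Atp5g3, whose precursors differ in their import sequences but yield the same mature protein. Their promoters are shown because these genes supply that single protein in unequal shares. Each runs from 250 bases before to 50 after the start in RefSeq (GRCm38.p6), read on the gene's strand, at chr11:96075582-96075881 (minus) for Atp5g1, chr15:102670998-102671297 (minus) for Atp5g2 and chr2:73911277-73911576 (minus) for Atp5g3. Capitals mark matches, on either strand, to the NRF1 motif (GCGC, any base, then TGCGC) or the ERR motif (TCAAGGTCA), named for factors known to drive respiratory genes.
Atp5g1: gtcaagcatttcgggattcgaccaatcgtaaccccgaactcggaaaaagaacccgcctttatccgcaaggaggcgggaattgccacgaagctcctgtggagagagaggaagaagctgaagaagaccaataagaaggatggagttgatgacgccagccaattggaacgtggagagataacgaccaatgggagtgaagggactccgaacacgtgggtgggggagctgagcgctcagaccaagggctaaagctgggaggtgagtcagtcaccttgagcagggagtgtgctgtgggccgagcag
Atp5g2: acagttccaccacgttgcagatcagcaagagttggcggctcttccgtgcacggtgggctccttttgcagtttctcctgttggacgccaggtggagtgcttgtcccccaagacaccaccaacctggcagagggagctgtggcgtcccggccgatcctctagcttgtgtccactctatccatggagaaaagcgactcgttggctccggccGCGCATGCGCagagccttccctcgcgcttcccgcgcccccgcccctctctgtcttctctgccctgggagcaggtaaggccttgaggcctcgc
Atp5g3: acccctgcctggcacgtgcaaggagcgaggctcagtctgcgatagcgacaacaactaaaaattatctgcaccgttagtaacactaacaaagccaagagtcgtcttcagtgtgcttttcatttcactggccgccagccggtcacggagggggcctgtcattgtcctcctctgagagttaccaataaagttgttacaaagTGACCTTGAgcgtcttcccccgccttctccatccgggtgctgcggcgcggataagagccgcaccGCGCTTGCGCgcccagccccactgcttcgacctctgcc
Atp5g2 holds an NRF1 match from base 209, Atp5g3 an ERR match from base 199 and an NRF1 match from base 263, and no searched letters occur in the Atp5g1 window. Over the 77 members matched to a RefSeq promoter of the same length, 19 (24.7%) held the NRF1 letters, against 5.19% of all 27025 genes with such a promoter. A gene was counted if any of its promoters held the letters. The YY1 letters AANATGGC were in 20 (26%) against 6.96%, the ETS letters CCGGAAGT in 5 (6.5%) against 4.31%, and the ERR letters in 2 (2.6%) against 0.47%. Of the 20 members with the YY1 letters, 15 belonged to complex I, which made up 40 of the 77 members searched. A match in letters is a description and not a binding site.

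Atp5g1 had 139, 149.5 and 96.02 FPKM in Nex_cKO against 169, 168 and 176 FPKM in Nex_Ctrl. All cKO values lay below all controls, with a change of -0.44 (SE 0.15, adjusted p = 0.116) that was -0.24 and passed the threshold without Nex_cKO replicate 3 (adjusted p = 0.0422), and -0.56 without Nex_cKO replicate 2 (adjusted p = 0.0453). Atp5g2 had 94.3, 82.2 and 66.6 FPKM in Nex_cKO against 86.3, 77.7 and 75.2 FPKM in Nex_Ctrl, with overlap (0.01, adjusted p = 0.97, and 0.14 without Nex_cKO replicate 3). Atp5g3, the largest contributor, had 327, 338 and 206 FPKM in Nex_cKO against 351, 308 and 345 FPKM in Nex_Ctrl (-0.24, adjusted p = 0.467, and -0.01 without Nex_cKO replicate 3). As a share of the 3 genes' FPKM, which compares genes within a library, Atp5g1 made up 24.8%, 26.3% and 26.1% in Nex_cKO against 27.8%, 30.3% and 29.5% in Nex_Ctrl. The shares did not overlap, and here Nex_cKO replicate 3 lay between the other cKO libraries. They averaged 25.7% ± 0.803 in Nex_cKO and 29.2% ± 1.27 in Nex_Ctrl (SD, n = 3 each; two-sided exact permutation p = 0.1, the smallest that 3 against 3 allow, and 0.3 when adjusted over 6 shares). The Atp5g2 share was 16.8%, 14.4% and 18.1% in Nex_cKO against 14.2%, 14.03% and 12.6% in Nex_Ctrl (exact permutation p = 0.1, adjusted 0.3). In the Camk2a model Atp5g1 made up 13.97% and 11.8% in cKO and 12.3% and 11.9% in controls, with no separation. These shares depend on the gene lengths used, there 4912 bases for Atp5g1 and 1675 for Atp5g2. Over the Camk2a libraries Atp5g1 had 875 to 1268 reads against 698 to 797 for Atp5g2. Its FPKM was nevertheless lower, 10.6 to 14.5 against 21.9 to 26.7. The Nex values come without gene lengths, so the size and rank of the shares cannot be compared between the models.

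**Figure D3:**
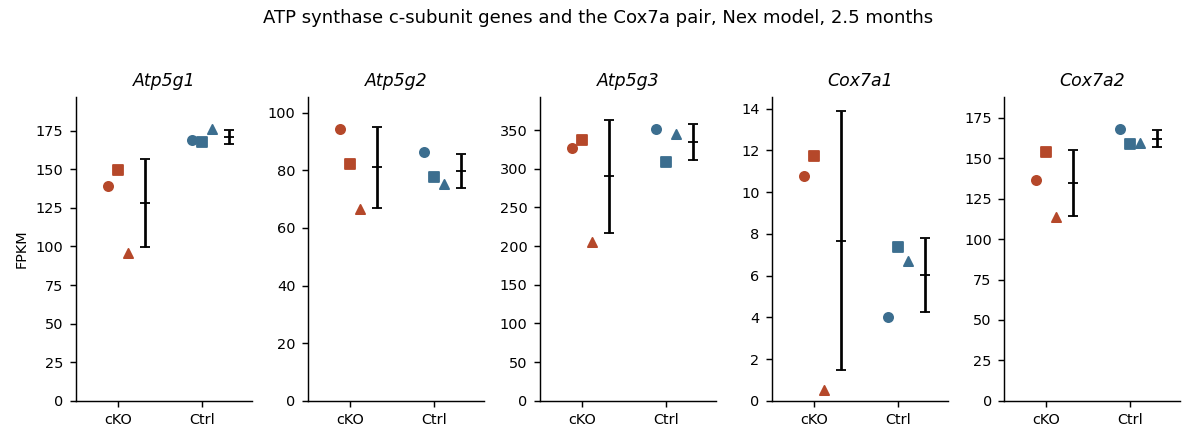
FPKM (vertical axes, from 0) of the ATP synthase c-subunit genes and of the Cox7a pair in Nex_cKO (left of each panel) and Nex_Ctrl libraries (circle, square and triangle are replicates 1, 2 and 3; bars are mean ± SD). Atp5g1 and Cox7a2 show no overlap between the groups, and Cox7a1 is at 10.8 and 11.7 FPKM in Nex_cKO replicates 1 and 2 and at 0.529 FPKM in replicate 3.

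In the Camk2a model no gene of the genome passed the threshold (0% of 12919 tested genes called, and 899, 6.96%, at an unadjusted p under 0.05; limma voom on recovered reads called 1 gene, which was no member). The 89 tested nuclear members had a median change of 0.02, with 33 negative (37.1% against 52.5% of all tested genes), while Cox6b2, Cox7b2, Cox8b and Cox8c were too low to test. The 13 mitochondrial members were all negative, with a median of -0.36 and a range of -0.69 to -0.24. Among nuclear members, both cKO libraries lay below both controls for 12 and above them for 8, where 21.1% of all tested genes were lower in this way and 16.2% higher. The nuclear median relative to the control mean was 0.15 and -0.08 in Camk2a_cKO replicates 1 and 2, against -0.01 and 0.01 in Camk2a_Ctrl replicates 1 and 2. Of the 89 members 17 and 67 lay below the control mean in the cKO libraries, so the 2 replicates lay on opposite sides of it. Other genes with under 400 coding bases stood at 0.11 and -0.05 in the same cKO libraries. Nuclear members took 0.809% and 0.666% of the reads in Camk2a_cKO and 0.694% and 0.697% in Camk2a_Ctrl, with Wilson 95% bounds of 0.805% to 0.813% and 0.662% to 0.670% in Camk2a_cKO that cover counting error only.

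**Figure D4:**
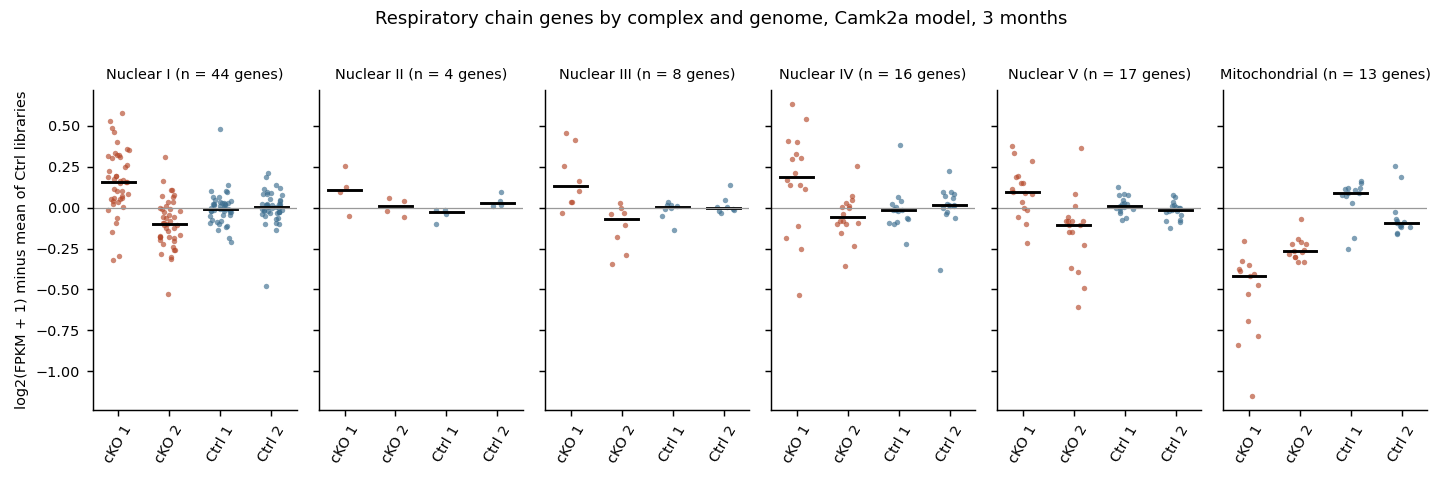
Respiratory chain genes in the Camk2a model: log2(FPKM + 1) minus the mean of the controls (vertical axis) for each gene (points) in each library, nuclear genes by complex and mitochondrial genes apart, with black bars at medians. The mitochondrial medians are -0.42 and -0.27 in Camk2a_cKO against 0.09 and -0.09 in Camk2a_Ctrl, while the median over all nuclear members is 0.15 in Camk2a_cKO replicate 1 and -0.08 in replicate 2.

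Single nuclear members of the Camk2a model were not distinguishable from the spread between libraries, and 4 of 89 (4.49%) had an unadjusted p under 0.05, against 6.96% of all tested genes. Cox8a (chr19:7215158-7217616, minus strand, GRCm38), the subunit VIII of complex IV, had 391 and 301 FPKM in Camk2a_cKO against 242 and 263 FPKM in Camk2a_Ctrl (0.44, SE 0.14, adjusted p = 0.593). Atp5mpl, a small protein bound to the ATP synthase membrane part, had 27.7 and 20.9 FPKM in Camk2a_cKO against 32 and 32.9 FPKM in Camk2a_Ctrl (-0.41, adjusted p = 0.65). Atp5s, coupling factor B, had 7.74 and 7.70 FPKM in Camk2a_cKO against 6.36 and 5.18 FPKM in Camk2a_Ctrl (0.37, adjusted p = 0.599). The fourth, Ndufa3, had 22.1 and 16.9 FPKM in Camk2a_cKO against 15.0 and 15.1 FPKM in Camk2a_Ctrl. In these 4 the groups did not overlap.

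Other nuclear members with high levels in complexes II to V at 3 months were not called either. Sdha had 79.7 and 75.2 FPKM in Camk2a_cKO against 72.3 and 73.9 FPKM in Camk2a_Ctrl, and Uqcr10 had 86.8 and 66.4 FPKM in Camk2a_cKO against 81.9 and 87.6 FPKM in Camk2a_Ctrl. Cox6a1 had 329 and 288 FPKM in Camk2a_cKO against 301 and 307 FPKM in Camk2a_Ctrl, and Atp5a1 had 234 and 237 FPKM in Camk2a_cKO against 238 and 231 FPKM in Camk2a_Ctrl. Of these, Sdha alone had groups that did not overlap, with a change of 0.08 (adjusted p = 0.902). Sdhd and Uqcr11, with the largest changes of complexes II and III, had 49.2 and 42.8 FPKM and 46.5 and 35.4 FPKM in Camk2a_cKO, against 39.9 and 42.3 FPKM and 31.5 and 38.3 FPKM in Camk2a_Ctrl (0.16 and 0.22, adjusted p = 0.843 and 0.86).

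The mitochondrial transcripts included the most abundant members. For 12 of the 13, 92.3%, both Camk2a_cKO libraries lay below both Camk2a_Ctrl libraries, where 21.1% of all tested genes did so, and 8 of 13 had an unadjusted p under 0.05, against 6.96%. None passed after adjustment. They are cut from the same few long precursors and share each library, so the 13 are not independent of each other. Their share of all reads was 5.40% and 5.47% in Camk2a_cKO against 7.03% and 6.17% in Camk2a_Ctrl. The Wilson 95% bounds, from 5.38% to 5.48% over both cKO libraries and from 6.15% to 7.04% over both controls, cover counting error only, and the controls differed from each other by more than the nearer pair of cKO and control libraries. The mitochondrial ribosomal RNAs took 0.604% and 0.718% of the reads in Camk2a_cKO and 0.913% and 0.819% in Camk2a_Ctrl. Red blood cell markers summed to 125 to 159 FPKM in Camk2a_cKO and to 80.5 to 101 FPKM in Camk2a_Ctrl, and their part was not tested.

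By complex, the complex I genes of mitochondrial DNA had the smallest p. mt-Nd1, a core membrane subunit at MT:2751-3707 (GRCm38), had 6409.9 and 6935 FPKM in Camk2a_cKO against 8985 and 8146 FPKM in Camk2a_Ctrl (-0.36, SE 0.11, adjusted p = 0.569, the smallest of the 13). mt-Nd2, another proton-pumping subunit, had 3797 and 4004 FPKM in Camk2a_cKO against 5451 and 4653 FPKM in Camk2a_Ctrl (-0.37, adjusted p = 0.59). mt-Nd4 and mt-Nd5, also pump subunits, had 3233 and 3391 FPKM and 2997 and 3449 FPKM in Camk2a_cKO, against 4581 and 3708 FPKM and 4469.9 and 3859 FPKM in Camk2a_Ctrl. mt-Nd6, the single member encoded on the opposite strand to the rest, had 2952 and 3058 FPKM in Camk2a_cKO against 4186 and 3554 FPKM in Camk2a_Ctrl (-0.36, limma adjusted p = 0.59). Whether the counting used strand is not given, so reads of mt-Nd6 and of transcripts opposite to it cannot be told apart. A change of RNA from that strand is therefore not shown. mt-Nd4l and mt-Nd3 had 78.1 and 117 FPKM and 14.2 and 13.5 FPKM in Camk2a_cKO, against 151 and 121 FPKM and 18.0 and 15.1 FPKM in Camk2a_Ctrl.

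mt-Cytb, the haem-carrying core of complex III, had 7237 and 7359 FPKM in Camk2a_cKO against 9647 and 8529.5 FPKM in Camk2a_Ctrl (-0.31, adjusted p = 0.65). mt-Co1, which holds the oxygen site of complex IV and was the most abundant member, had 13564 and 14701 FPKM in Camk2a_cKO against 18739 and 16483 FPKM in Camk2a_Ctrl (-0.32, adjusted p = 0.672). In both the controls were above the cKO libraries without overlap. mt-Co2, which receives electrons from cytochrome c, and mt-Co3 had 266 and 336 FPKM and 167 and 257 FPKM in Camk2a_cKO, against 404 and 362 FPKM and 263 and 341 FPKM in Camk2a_Ctrl. mt-Atp6, the proton channel of complex V, had 183 and 282 FPKM in Camk2a_cKO against 302 and 291 FPKM in Camk2a_Ctrl. mt-Atp8, at 2.75 and 6.12 FPKM in Camk2a_cKO against 5.98 and 8.93 FPKM in Camk2a_Ctrl, was the single one whose groups overlapped, and rested on 10 and 21 reads in Camk2a_cKO against 21 and 36 in Camk2a_Ctrl.

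The levels of mt-Co2, mt-Co3, mt-Atp6, mt-Nd4l and mt-Nd3 need care, because the nuclear genome holds copies of them on chromosome 1 that are identical over 98.3% to 99.9% of their length. A read that fits both places equally cannot be assigned, and how the authors treated such reads is not given. The first 60 bases of 2 of these genes are shown with their copies, from the GENCODE M21 transcripts (GRCm38), all in lower case since no base differs between gene and copy.
mt-Co2: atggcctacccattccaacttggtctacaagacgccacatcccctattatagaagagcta
Gm28661: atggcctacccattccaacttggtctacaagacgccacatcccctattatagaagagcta
mt-Atp6: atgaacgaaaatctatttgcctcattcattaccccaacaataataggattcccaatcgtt
Gm10925: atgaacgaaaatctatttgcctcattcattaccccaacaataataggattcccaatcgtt
These lie at MT:7013-7072 and chr1:24615506-24615565 (minus) for mt-Co2 and its copy Gm28661, and at MT:7927-7986 and chr1:24614592-24614651 (minus) for mt-Atp6 and its copy Gm10925. Gm28661 was itself listed at 174 and 164 FPKM in Camk2a_cKO and 239 and 204 FPKM in Camk2a_Ctrl, and Gm10925 at 167 and 171 FPKM in Camk2a_cKO and 184 and 167 FPKM in Camk2a_Ctrl. Gm28439 is identical to mt-Nd4 over 63.6% of that gene, and Gm29216 covers 31.3% of mt-Co1 with 1 differing base in 483. Among annotated pseudogenes, the only ones searched, no copy was identical over the whole length of mt-Co1, mt-Cytb, mt-Nd1, mt-Nd2, mt-Nd4, mt-Nd5 or mt-Nd6. These 7 most abundant members had changes of -0.37 to -0.31. For mt-Atp8 no identical annotated copy was found. It begins at MT:7766, between mt-Co2 and mt-Atp6, and the stretch between their copies on chromosome 1 was not searched. Its level therefore needs the same care.

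**Figure D5:**
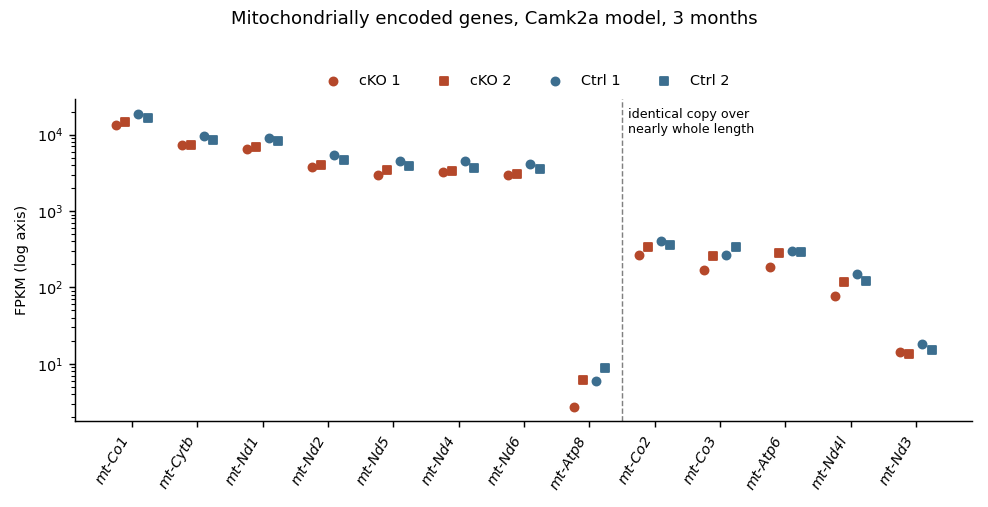
FPKM (log axis) of the 13 mitochondrial genes in Camk2a_cKO replicates 1 and 2 (left for each gene) and Camk2a_Ctrl replicates 1 and 2. The dashed line sets apart the 5 genes with an identical annotated nuclear copy over nearly their whole length. These 5 lie between 13.5 and 404 FPKM, while mt-Co1 lies between 13564 and 18739 FPKM. Only annotated copies were searched, which leaves mt-Atp8 undecided.

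The change in the Nex model minus the change in the Camk2a model asks whether the nuclear members behaved differently under the 2 drivers. Driver, age, library set and table differ together here and cannot be told apart. None of the 79 members tested in both was called, where 0.554% of 10116 genes were, and 71 were negative (89.9% against 56% of all genes) with a median of -0.21 against -0.03. The smallest adjusted p was that of Atp5g1, with a difference of -0.56 (SE 0.24, adjusted p = 0.343) made up of a change of -0.44 at 2.5 months and of 0.13 at 3 months. Ndufaf7, a methyltransferase needed to assemble complex I, followed with -0.32 (adjusted p = 0.358) and Atp5s with -0.39 (adjusted p = 0.369). Without Nex_cKO replicate 3 the median difference was -0.09, and without Camk2a_cKO replicate 1 it was -0.08.

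Other genes of mitochondrial energy metabolism were counted in the same fits. Of 41 tested respiratory chain genes and assembly factors outside the name rule, 1 rose and 1 fell in the Nex model, where 4.47% of all tested genes were higher and 4.06% lower. The median change was -0.06 (-0.01 without Nex_cKO replicate 3). Nubpl, which delivers iron-sulfur clusters to complex I, rose, with 4.43 to 5.70 FPKM in Nex_cKO against 2.64 to 3.71 FPKM in Nex_Ctrl (0.51, adjusted p = 0.0436). Cox15, which makes the haem A of complex IV, fell, with 4.38 to 4.93 FPKM in Nex_cKO against 6.51 to 6.69 FPKM in Nex_Ctrl (-0.41, adjusted p = 0.0218). Of 10 tested carriers, porins and uncoupling proteins, Ucp2, an inner membrane carrier, rose, with 11.96 to 13.7 FPKM in Nex_cKO against 6.78 to 9.27 FPKM in Nex_Ctrl (0.57, adjusted p = 0.0173). The groups did not overlap for these 3 genes, but each call could be lost. Nubpl lost its call without any one library other than Nex_Ctrl replicate 2 (limma adjusted p = 0.0512 to 0.156), Cox15 without Nex_cKO replicate 1 (0.0603) or any one control (0.0768 to 0.0918), and Ucp2 without Nex_cKO replicate 1 (0.051) or Nex_Ctrl replicate 1 (0.0515). Processing ended calls too: Nubpl without a filter on low values (0.0783) or under quantile normalization (0.0693), and Cox15 after rescaling to named genes (0.1). None was called of 20 genes of mitochondrial DNA upkeep and biogenesis (17 negative, where 59.5% of all tested genes were, median -0.13). Nor was any called of 20 genes of the citric acid cycle and pyruvate dehydrogenase (16 negative, median -0.06) or of 14 of glycolysis (12 negative, median -0.13). These 3 medians were -0.13, -0.02 and -0.06 without Nex_cKO replicate 3. In the Camk2a model none of the 39, 18, 20, 16 and 11 tested genes of these 5 lists was called, and the medians lay between -0.01 and 0.06. There Nubpl, Cox15 and Ucp2 had changes of -0.06, 0.10 and 0.18 with adjusted p of 0.821 or more.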

How the data were processed

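Processed values were used as the authors deposited them: FPKM per gene and library, in 1 table per age. Per the submitters' processing notes, cutadapt, STAR, Cufflinks 2.2.1 and DESeq2 were used, with no role or order given, on mm10 and GRCm38. Strand and the treatment of reads with several places are not given in the sources used here. At 3 months FPKM times gene length was a whole multiple of 1 step within a tolerance of 0.1 reads, which gave the reads per gene. At 2.5 months depth is unknown and no interval is given. Where a name had several rows, the one of highest mean was kept (1864 left out at 2.5 months and 105 at 3 months), and unnamed rows were not tested.

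Each table was fitted apart with limma 3.58.1 in R 4.3.3 (log2(FPKM + 1), intensity trend, two-sided, Benjamini-Hochberg over all genes tested), and genes of FPKM 1 or more in 3 libraries (Nex) or 2 (Camk2a) were tested. The pseudocount of 1 shrinks changes of low genes. The script was tested on simulated data. The difference of changes was fitted on single genes tested in both tables. Coding lengths and mitochondrial copies came from GENCODE M21 and promoters from RefSeq. Genes named were, per complex, the most abundant and the most changed member, the mitochondrial members, tissue-restricted isoforms with their partners, the c-subunit genes and called genes of the other lists. Some items are not reported here. Ndufc1, Ndufs5, Ndufa5, Uqcr10, Uqcrh, core subunits, Atp5b, Atp5c1, Atp5d, Atp5e, Atp5s and Ndufaf7 were added after their values were seen. The members and lists were chosen with earlier results of these data known. Alternatives were another pseudocount, other filters, scalings, length corrections, no trend, a replicate block, voom on recovered reads and leaving out each library.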

Additional observations from a re-analysis of the deposited data

How the results depend on the processing

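Calls among the Nex members depended on single libraries: leaving out each library in turn gave 0 to 5 lower and 0 to 1 higher, with 5 lower without Nex_cKO replicate 2 and 1 in each direction without Nex_cKO replicate 3, and the other alternatives gave none. Over all alternatives the Nex median stayed negative, from -0.24 to -0.05. Rescaling to named genes, which moved the median of all genes to 0.06 and the calls over all genes to 668 higher and 218 lower, left the members at -0.05, and median ratio rescaling (607 higher and 325 lower) left them at -0.12. Without Nex_cKO replicate 3, 18 of 84 members changed sign, 17 of them to positive. Among those followed through every alternative, Atp5k (0.037) and Cox7a1 (0.83) reversed, their ranges being -0.91 to 0.037 and -0.70 to 0.83 when each library was left out, and the cause was not tested. The nuclear Camk2a median was -0.082 to 0.15 when each library was left out, with 0.15 without Camk2a_cKO replicate 2 and 17 to 67 negative members. The mitochondrial median was 0.00 with 6 of 13 negative under quantile normalization, where mt-Nd4 (0.085), mt-Nd5 (0.017) and mt-Nd6 (0.074) reversed. That method gives the highest ranks of every library the same values, and these genes hold those ranks. Every other alternative kept all 13 negative. Counts over all Nex genes also moved by over 1.5 times under a filter of FPKM 5 (197 higher, 347 lower), coding length correction (536 and 328) and leaving out single libraries (160 to 685 lower). In the Camk2a model 5 genes of the genome were called with no intensity trend, 2 after coding length correction, 1 with a filter of FPKM 5 and 1 with voom on recovered reads, none of them a member. With the replicate block no member was called, the calls over all Nex genes were 497 higher and 272 lower, those for the difference of changes 25 higher and 4 lower, and Cox15 lost its call (adjusted p = 0.0644). Same-numbered libraries did not deviate together (r = 0.0167, -0.104 and -0.0956 for the Nex libraries and 0.0496 for the Camk2a libraries), so the numbers were not taken as pairs. Over all alternatives adjusted p ranged from 0.0218 to 0.156 for Nubpl, from 0.0165 to 0.1 for Cox15 and from 0.00357 to 0.0515 for Ucp2. Leaving out a Camk2a library left 1 sample in an arm, which was assumed to vary like the other group. The small groups, the unknown depth at 2.5 months, the library that stood apart and the identical nuclear copies limit these values.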
